A study of Mus musculus with 8 samples.

Results

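The disulfide isomerases and endoplasmic reticulum (ER) oxidases examined here are 10 listed genes, matched by Entrez identifier and symbol, out of the 27179 genes in the count table: P4hb, Pdia3, Pdia4, Pdia5, Pdia6, Txndc5, Txndc11, Erp44, Ero1l and Ero1lb. Ero1l and Ero1lb are now named Ero1a and Ero1b. RNA-seq libraries came from bone marrow plasma cells of C57BL/6 mice that were sorted as positive for a Blimp1-GFP reporter and for surface CD138, so all groups carry that reporter. The 8 libraries were 2 of Blimp1-/- cells (Blimp1KO) with 2 of wild-type cells (WT, replicates 1 and 2) in batch 1, and 2 of Xbp1-/- cells (Xbp1KO) with 2 of WT cells (replicates 3 and 4) in batch 2. Each knockout, of the transcription factor Blimp1 or XBP1, was set against WT of its own batch, and each change is one of relative mRNA level. The libraries do not measure antibody secretion. Replicates are called biological in the design text. The floxed or null alleles, any Cre driver, the exons deleted, the age and sex of the mice and the number of mice per library are not given in the sources used here.

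Antibodies are held together by disulfide bonds, which form in the ER by a relay. ERO1 oxidases pass electrons from protein disulfide isomerases (PDIs) to oxygen, making hydrogen peroxide, and the oxidised PDIs then form and rearrange disulfides in nascent chains. Plasma cells secrete antibody at a high rate and carry large amounts of this machinery, and XBP1, once its mRNA is spliced by the stress sensor IRE1, is a known activator of ER folding genes.

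The promoters of 4 members, from the RefSeq table of GRCm38.p6, are printed because Ero1lb and Pdia6 hold a motif of the unfolded protein response, while Erp44 and Ero1l changed in opposite directions in Xbp1KO. Each runs 5′ to 3′ on the gene's strand from 250 bases before to 50 after an annotated start, with a motif match in capitals. In order they lie at chr13:12565633-12565932 (plus strand), chr12:17266339-17266638 (plus strand), chr4:48279586-48279885 (minus strand) and chr14:45318523-45318822 (minus strand). The start used for Ero1lb lies downstream of the first base of the gene's span, 12565818, and motif positions count from the start used.
Ero1lb: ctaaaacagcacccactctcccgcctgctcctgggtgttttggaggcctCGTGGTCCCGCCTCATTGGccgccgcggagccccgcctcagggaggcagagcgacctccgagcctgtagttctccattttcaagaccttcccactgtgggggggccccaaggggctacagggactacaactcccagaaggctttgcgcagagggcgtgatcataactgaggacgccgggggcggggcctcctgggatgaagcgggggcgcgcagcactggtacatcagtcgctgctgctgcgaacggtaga
Pdia6: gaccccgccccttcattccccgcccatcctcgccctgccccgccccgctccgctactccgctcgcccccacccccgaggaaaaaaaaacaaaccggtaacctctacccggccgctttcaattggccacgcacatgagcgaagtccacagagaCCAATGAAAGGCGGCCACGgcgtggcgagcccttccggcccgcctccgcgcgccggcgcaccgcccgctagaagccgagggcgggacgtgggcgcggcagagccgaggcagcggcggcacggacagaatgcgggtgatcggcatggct
Erp44: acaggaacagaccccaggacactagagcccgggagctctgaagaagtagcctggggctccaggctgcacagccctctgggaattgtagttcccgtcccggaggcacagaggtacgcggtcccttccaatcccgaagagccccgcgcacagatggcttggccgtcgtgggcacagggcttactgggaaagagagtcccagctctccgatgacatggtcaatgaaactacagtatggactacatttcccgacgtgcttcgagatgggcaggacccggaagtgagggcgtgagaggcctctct
Ero1l: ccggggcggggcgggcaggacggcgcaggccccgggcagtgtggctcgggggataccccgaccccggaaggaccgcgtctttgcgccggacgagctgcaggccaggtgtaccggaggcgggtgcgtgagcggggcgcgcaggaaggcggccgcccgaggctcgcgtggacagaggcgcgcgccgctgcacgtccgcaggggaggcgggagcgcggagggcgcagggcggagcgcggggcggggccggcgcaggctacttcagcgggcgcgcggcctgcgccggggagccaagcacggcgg

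All 10 members had a promoter in that table, in 14 windows because Erp44, Txndc5 and Txndc11 have several annotated starts. The ER stress response element ERSE, spelled CCAAT, then any 9 bases, then CCACG, and searched on both strands like the others, was found in 39 of 32851 windows (0.119%). It stood in those of Pdia6, on the gene's strand at position -98, and Ero1lb, on the opposite strand at position -201, counting the start site as 0. ERSE-II, which is ATTGG, any base and CCACG, was in 12 windows (0.0365%), none of them a member's. The unfolded protein response element UPRE (TGACGTGG) was in 222 windows (0.676%), among them 1 of the Txndc5 windows, at -138, and 1 of the Txndc11 windows, at -102. The core of the ATF4 element, TTGCATCA, was in 294 windows (0.895%) and in no member's. ERSE and ERSE-II both end in CCACG, whose reverse complement also closes UPRE, but no match in a member overlapped another. A match is a description of letters, and the printed Erp44 and Ero1l windows held none of these letters.

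Total counts ranged from 44012152 to 145411827 per library. Immunoglobulin genes took 55.4% and 58.4% of the counts in Blimp1KO and 75.7% and 75.6% in WT of batch 1, then 30.0% and 25.2% in Xbp1KO and 69.7% and 64.8% in WT of batch 2. Levels within a gene are therefore given as CPM, counts divided by library sizes that TMM had scaled, with scaling factors of 0.564 to 2.11, and they are relative to the bulk of other transcripts. Raw library totals, an alternative added after the data were seen, would move the median log2 fold change of all genes up by 0.79 in Blimp1KO and by 1.16 in Xbp1KO, so every change below is relative to that shift. Prdm1, which encodes Blimp1, had 243 and 176 CPM in Blimp1KO against 301 and 306 in WT, a difference that was not called (adjusted p = 0.401, edgeR). Xbp1 itself had 1302 and 1105 CPM in Xbp1KO against 2129 and 2203 in WT (adjusted p = 0.0939, edgeR). Counts over the whole gene do not check a deletion whose exons are not known. Sdc1, the gene of the sort marker CD138, was detected at 309 CPM or more in all 8 libraries. Of markers of other cells, the summed neutrophil and monocyte list (all 10 tested) stood at 44.0 and 1059 CPM in Xbp1KO and 12.4 and 451 CPM in WT of batch 2. In batch 1 it stood at 512 and 267 CPM in Blimp1KO and 294 and 366 CPM in WT. Xbp1KO replicate 2 and WT replicate 4 thus stood above the other library of their group. WT replicate 4 lay within the range of batch 1, while Xbp1KO replicate 1 and WT replicate 3 lay below all of batch 1. The summed erythroid and megakaryocyte list (7 of its 8 genes tested) was likewise higher in Xbp1KO replicate 2 and WT replicate 4. It stood at 6.46 and 661 CPM in Xbp1KO and 20.5 and 203 CPM in WT of batch 2. In batch 1 it stood at 20.3 and 95.2 CPM in Blimp1KO and 19.5 and 104 CPM in WT. The mature B cell list (all 8 tested) summed to 517 and 553 CPM in Blimp1KO, against 148 and 128 CPM in its WT libraries. Most of the Blimp1KO sum came from Ms4a1 (285 and 240 CPM) and Spib (157 and 197 CPM). Of the 8 genes, 7 had positive log2 fold changes in Blimp1KO and 1, Cr2, a negative value (log2 -1.35). Spib was the 1 gene of this list called there, and it was higher (adjusted p = 0.0326, edgeR). The T and NK list ranged from 6.91 to 28.2 CPM over the 8 libraries, the dendritic cell list from 65.4 to 147 CPM and the stroma and endothelium list from 30.5 to 64.6 CPM. The plasma cell list (all 9 tested) drew most of its sum from the J chain gene Igj. It summed to 58836 and 72462 CPM in Blimp1KO against 119011 and 110614 CPM in WT of batch 1. In Xbp1KO it summed to 40716 and 32639 CPM, against 68046 and 50310 CPM in WT of batch 2. Gene by gene, 6 of the 9 had positive log2 fold changes in Xbp1KO and 3 negative (median 0.18, beside 0.08 over all genes). The 3 negative ones include Xbp1, the gene targeted in Xbp1KO (log2 -0.85). Of the 9, edgeR called 1 in Xbp1KO, Mzb1, which was lower. No gene of these lists was at 0 in every library.

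Per gene length, the family spanned a wide range of levels, as the deposited log2 FPKM show. In Xbp1KO, Pdia4 and Txndc5 shared the top with overlapping values, 10.64 and 10.57 for Pdia4 and 10.49 and 10.69 for Txndc5, which is also called ERp46 and is known for high levels in plasma cells. Pdia6, Pdia3, Txndc11 and P4hb followed, and then Ero1l at 5.48 and 5.13. Ero1lb (4.33 and 4.14) and Erp44 (4.16 and 4.08) came next and overlapped. Pdia5 was last at -0.36 and -1.96, above 16.7% of the genes in the table. In Blimp1KO, Txndc5 came first at 10.28 and 9.81, and Ero1l (3.39 and 3.53) and Pdia5 (3.64 and 3.12) overlapped at the end.

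The order in Blimp1KO was that of both WT groups: Txndc5, Pdia4, Pdia6, Pdia3, P4hb, Txndc11, Erp44, Ero1lb, Ero1l and Pdia5. Neighbours did not overlap in WT, except Pdia3 and P4hb in batch 1. Txndc5 led in WT of batch 2 with 11.41 and 10.80, above 99.9% of the genes in the table, and in WT of batch 1 with 11.41 and 11.25. Ero1lb, the ERO1 paralogue known from pancreas and other secretory tissues, exceeded the broadly expressed Ero1l there, at 6.54 and 6.55 and at 3.97 and 4.24 in WT of batch 2. Pdia5 was the lowest member in WT too, at 1.85 and 0.96 in batch 2. Its raw counts ranged from 41 to 730 over the 8 libraries, so it is the least precisely measured. With gene length added back, the sorted log2 FPKM were nearly the same in every library over the upper ranks, where this was checked. These values are therefore read as rank and not as total amount.

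**Figure D1:**
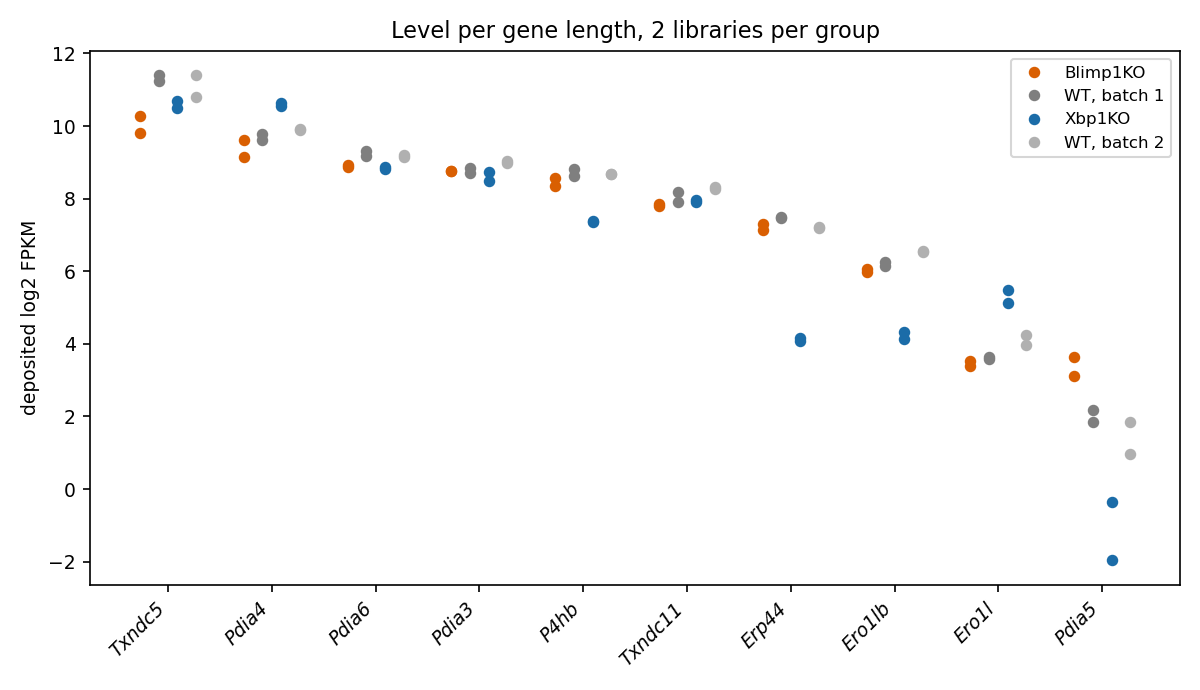
Deposited log2 FPKM (y axis, per gene length) of the 10 genes (x axis, ordered by WT of batch 2), with 1 point per library and 2 libraries per group. Erp44 and Ero1lb in Xbp1KO sit between 4.08 and 4.33 while the other groups lie between 5.99 and 7.48, and Pdia5 spans from -1.96 to 3.64.

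In Xbp1KO 5 of the 10 members changed: Ero1l rose, and Erp44, Ero1lb, Pdia5 and P4hb fell. A gene was called changed at a Benjamini-Hochberg adjusted p below 0.05 in edgeR's quasi-likelihood test over all 15073 genes tested, and 7.7% of these were called in Xbp1KO, 2.63% higher and 5.06% lower. The members' median log2 fold change was -0.58, beside 0.08 over all genes tested. The libraries did not overlap for any of the 10, with 2 higher and 8 lower in both Xbp1KO libraries, whereas 57.6% of all tested genes were apart in this way (31.8% higher and 25.8% lower). Since these are bulk samples, fewer cells of a type and less RNA per cell cannot be told apart.

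Among the helpers that hold the oxidases in place stands Erp44 (Entrez 76299, chr4:48190711-48279635, GRCm38.p6). It encodes a PDI relative that cycles between the ER and the early Golgi, retrieves ERO1 and peroxiredoxin 4, and retains unassembled IgM subunits. Its level was 19.9 and 18.4 CPM in the Xbp1KO libraries, against 164 and 153 CPM in WT. The groups were far apart and replicates close, and the fold change was 8.27-fold lower (log2 -3.05 ± 0.18 SE, adjusted p = 0.00124, edgeR, n = 2 each). It passed the test when any of the 8 libraries was left out (adjusted p up to 0.0139) and also without both Xbp1KO replicate 2 and WT replicate 4 (adjusted p = 0.0462), being the single member that did. This last alternative was added after the data were seen.

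The ERO1 pair split. Ero1lb (Entrez 67475, chr13:12565818-12609533) had 35.9 and 29.7 CPM in Xbp1KO, against 163 and 158 CPM in WT, and fell 4.90-fold (log2 -2.29 ± 0.17, adjusted p = 0.00193, edgeR). Ero1l (Entrez 50527, chr14:45283087-45318572), whose transcript is known to be raised by hypoxia and by the stress factor CHOP, had 82.9 and 59.1 CPM in Xbp1KO, against 29.1 and 34.5 CPM in WT, and rose 2.23-fold (log2 1.16 ± 0.20, adjusted p = 0.0196, edgeR). Both Xbp1KO libraries were above both WT libraries for Ero1l and below them for Ero1lb. Ero1lb passed with any 1 library left out (adjusted p up to 0.0189) but not without both Xbp1KO replicate 2 and WT replicate 4 (log2 -2.19, adjusted p = 0.0653). The Ero1l call was lost when WT replicate 1, 2, 3 or 4 or Xbp1KO replicate 1 was left out (log2 0.82 to 1.41 over all libraries left out in turn, adjusted p up to 0.146).

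Because both ERO1 transcripts come from the same library, their proportion does not depend on how libraries are scaled. Per gene length, Ero1l made up 68.9% and 65.6% of the summed ERO1 counts in Xbp1KO, against 14.6% and 17.3% in WT of batch 2. In Blimp1KO the share was 14.7% and 12.8%, against 13.9% and 13.1% in WT of batch 1. Ero1l was thus the minor ERO1 transcript in 6 libraries and the major transcript in both Xbp1KO libraries, where its ratio to Ero1lb was 2.21 and 1.91, against 0.171 and 0.209 in WT of the batch. The ratio shows unequal change of the pair, and no test was run on it.

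**Figure D2:**
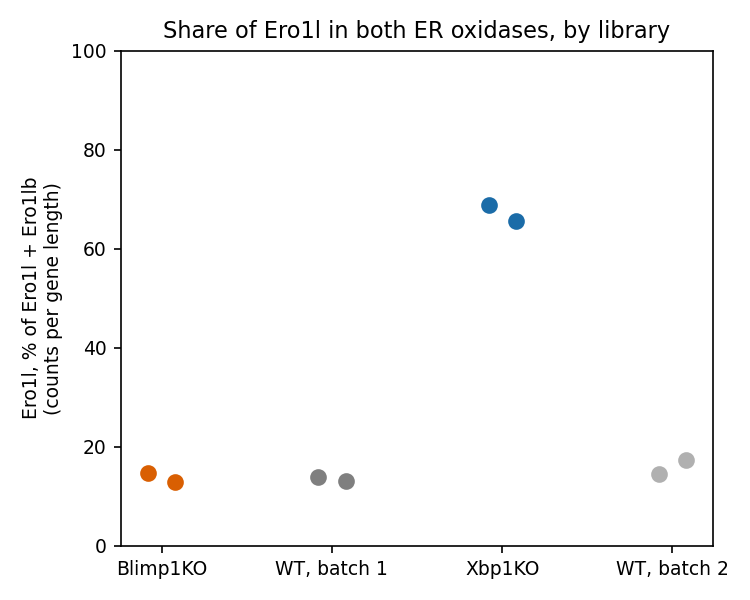
Share of Ero1l (y axis, percent of Ero1l plus Ero1lb counts per gene length) in each library (points) of the 4 groups. Both Xbp1KO libraries are at 65.6% or above, and the other 6 are at 17.3% or below.

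Of the catalytic PDIs, P4hb and Pdia5 fell. P4hb (Entrez 18453, chr11:120560298-120573253) encodes the founding PDI, also a subunit of prolyl hydroxylase and of the microsomal triglyceride transfer protein. It had 178 and 157 CPM in Xbp1KO against 439 and 424 CPM in WT, a 2.58-fold lower level (log2 -1.37 ± 0.19, adjusted p = 0.00938, edgeR). Pdia5 (Entrez 72599, chr16:35397308-35490919), a PDI with little-known clients, had 0.610 and 0.442 CPM in Xbp1KO against 2.85 and 1.82 CPM in WT, 4.42-fold lower (log2 -2.14 ± 0.35, adjusted p = 0.0166, edgeR). For both genes the 2 groups did not overlap. The P4hb call was lost without either Xbp1KO library or either WT library of batch 2 (adjusted p 0.0517 to 0.0815). The Pdia5 call was lost without Xbp1KO replicate 1, Xbp1KO replicate 2 or WT replicate 3 (adjusted p 0.0572 to 0.0898). Fitted on the 4 libraries of batch 2 alone, which called 10% of all genes, Pdia5 also missed the threshold (log2 -2.17, adjusted p = 0.0612), and the other 4 members were called.

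The other 5 did not pass the test in Xbp1KO. Pdia4, or ERp72, an abundant PDI found in complexes with the chaperone BiP, had 2169 and 1664 CPM against 1108 and 1165 CPM in WT (log2 0.75 ± 0.25, adjusted p = 0.129, edgeR), so both knockout libraries lay above WT but apart from each other. Txndc5 had 2158 and 1850 CPM in Xbp1KO against 3518 and 2989 CPM in WT (log2 -0.70 ± 0.29, adjusted p = 0.201, edgeR). Pdia3 (ERp57), which works on glycoproteins with calnexin and calreticulin, Pdia6 (P5), a partner of BiP, and Txndc11, known to bind the DUOX oxidases, had log2 fold changes of -0.46, -0.43 and -0.42, with adjusted p of 0.257 to 0.282. With DESeq2, which called 14.5% of the genes it gave an adjusted p, 7 members were called, the further 2 being Pdia4 (adjusted p = 0.00763) and Txndc5 (adjusted p = 0.0204). With limma on the log2 FPKM, which called 8.07% of its genes, the same 5 members were called as with edgeR.

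**Figure D3:**
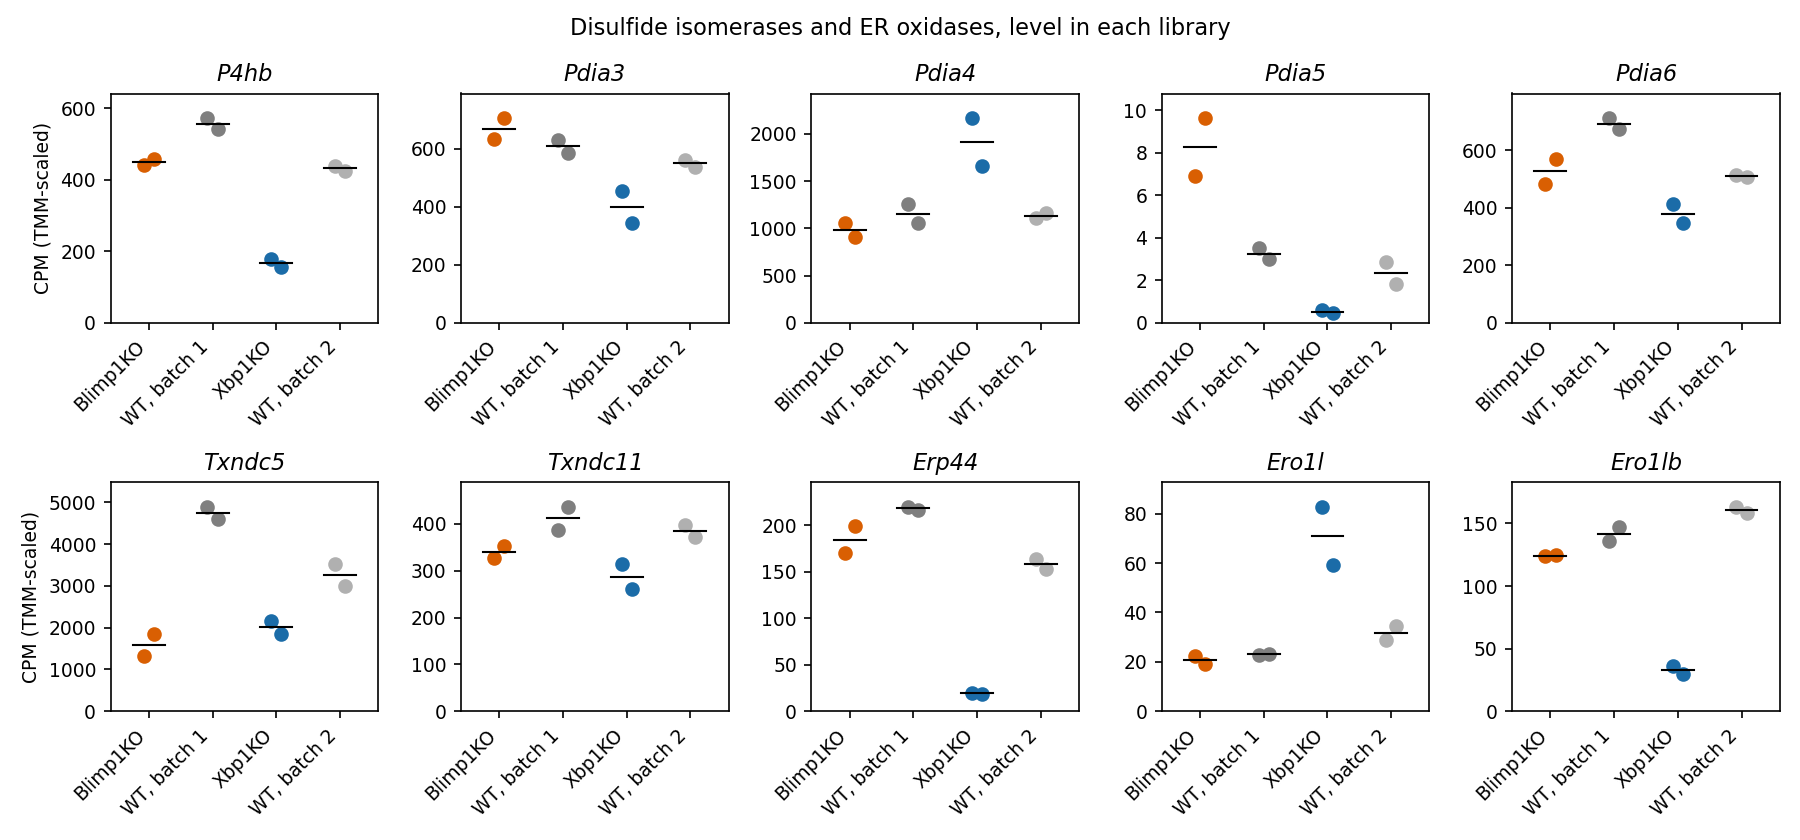
CPM on TMM-scaled library sizes (y axis, from 0, a scale of its own for each gene) of the 10 genes in each library (points), with bars at the mean of 2 libraries. Erp44 in Xbp1KO is at 18.4 and 19.9 CPM against 153 and 164 in WT of batch 2, and Txndc5 in Blimp1KO is at 1330 and 1838 CPM against 4592 and 4896 in WT of batch 1.

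The scaling of libraries bears on some of these directions. On raw library totals, where 62.9% of all genes were called and 8 members (5 higher and 3 lower), Erp44 (log2 -1.89), Ero1lb (-1.14) and Pdia5 (-0.98) were still called lower and Ero1l (2.29) higher, while P4hb was no longer called (-0.21, adjusted p = 0.304). Pdia3, Pdia6 and Txndc11 were also called higher there (0.68, 0.72 and 0.73), and Txndc5 had a positive value without a call (0.46). Each of these was below the 1.16 by which the median gene moved. Pdia4 (1.89), also called higher, was above it. The summed neutrophil and erythroid markers differed more between the replicates of batch 2 than between its groups. Their part in these results was not tested beyond leaving out Xbp1KO replicate 2 and WT replicate 4, which left 1 member called of the 5 (beside 0.386% of all genes) and every one of the 10 fold changes with the same sign. Erp44, Ero1lb, P4hb and Pdia5 then had log2 fold changes of -3.05, -2.19, -1.31 and -2.23.

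In Blimp1KO none of the 10 members was called by edgeR, beside 0.862% of all genes tested (0.577% higher and 0.285% lower). DESeq2 called 2 members (beside 5.79% of its genes), limma on the deposited log2 FPKM called none (beside 1.28%), and 2 had an unadjusted p below 0.05 in edgeR. The median log2 fold change of the members was -0.24, beside -0.006 over all genes. The libraries did not overlap for 9 members, 2 higher and 7 lower in Blimp1KO, beside 43.1% of all genes (20.9% higher and 22.1% lower).

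Txndc5 and Pdia5 had the lowest p in this comparison. Txndc5 (Entrez 105245, chr13:38500266-38528824) stood at 1330 and 1838 CPM in Blimp1KO against 4896 and 4592 CPM in WT of batch 1, 2.995-fold lower (log2 -1.58 ± 0.29, adjusted p = 0.0670, edgeR). Both Blimp1KO libraries were far below both WT libraries, but they also differed from each other. DESeq2 called it (adjusted p = 5.87e-09), as did edgeR with immunoglobulin genes left out (adjusted p = 0.0322), a fit that called 1.18% of all genes. Among reads of the 10 genes, not corrected for length, Txndc5 took 28.9% and 35.4% in Blimp1KO against 55.4% and 55.5% in WT, a share that no library scaling changes. Summed over the 10 genes, the level was 4892 ± 418 CPM in Blimp1KO libraries, against 8552 ± 398 CPM in their WT libraries (SD, n = 2 each). Within these sums the mean of Txndc5 alone was 1584 CPM, against 4744 CPM in WT. In Xbp1KO the 10 genes summed to 5278 ± 777 CPM, and in WT of batch 2 to 6620 ± 391 CPM. There the mean of Txndc5 was 2004 against 3254 CPM in WT, while that of Pdia4 was 1916 against 1137 CPM. Of the 9 plasma cell markers, edgeR called none in Blimp1KO, and 1 had an unadjusted p below 0.05. All 9 had negative log2 fold changes (median -0.52, beside -0.006 over all genes). Of these, 7 were below WT without overlap, beside 22.1% of all genes. The 9, and the 7 without overlap, include Prdm1, the gene targeted in Blimp1KO (log2 -0.54). Xbp1, one of the 9, had 1371 and 1671 CPM in Blimp1KO against 3005 and 3008 CPM in WT (log2 -0.98 ± 0.25, adjusted p = 0.141, edgeR). The part of these markers in the Txndc5 value and in the sum was not tested.

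Pdia5 stood at 6.90 and 9.64 CPM in Blimp1KO against 3.52 and 3.003 CPM in WT of batch 1 (log2 1.34 ± 0.34, adjusted p = 0.138, edgeR), with no overlap, and DESeq2 called it (adjusted p = 0.00873). The summed mature B cell markers of the same libraries stood above WT, as given earlier, and their part in this value was not tested. The other 8 members had log2 fold changes from -0.39 (Pdia6) to 0.14 (Pdia3), with adjusted p of 0.485 or more. Erp44 had 170 and 199 CPM in Blimp1KO against 220 and 216 CPM in WT, and Ero1lb 124 and 124 CPM against 136 and 148 CPM. On raw library totals, where 39.1% of all genes and 5 members were called (Pdia3, Pdia5, Erp44 and Ero1lb higher, Txndc5 lower), 7 of these 8, all but Pdia3, change sign, to between 0.40 and 0.64, below the 0.79 by which the median gene moved.

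The effects of the knockouts were compared directly as the Xbp1KO change minus the Blimp1KO change, each against WT of its own batch. Of the 10 members, 3 differed, all lower in Xbp1KO by this measure, beside 1.68% of all genes (0.511% higher and 1.17% lower). Pdia5 differed by -3.49 ± 0.49 on the log2 scale (adjusted p = 0.0270, edgeR), Erp44 by -2.81 ± 0.24 (adjusted p = 0.00800, edgeR) and Ero1lb by -2.10 ± 0.24 (adjusted p = 0.0144, edgeR). The Pdia5 values lay above WT in both Blimp1KO libraries and below WT in both Xbp1KO libraries, as did those of Pdia3 by smaller amounts, and the Ero1l values lay the other way round. Ero1l (1.31 ± 0.28, adjusted p = 0.0720), P4hb (-1.06 ± 0.26, adjusted p = 0.108), Pdia4 (0.98, adjusted p = 0.237) and Txndc5 (0.88 ± 0.41, adjusted p = 0.357) did not pass edgeR's test of the difference, which does not show that the effects were alike. The count fell to 0 without WT replicate 1 or WT replicate 2 and to 1 without WT replicate 3 or WT replicate 4, and it was 0, beside 0.0131% of all genes, without both Xbp1KO replicate 2 and WT replicate 4. DESeq2 called 6 members by this measure, beside 8.23% of its genes. Limma on the log2 FPKM, which called 2.21%, had Erp44 and Ero1lb lower and Ero1l higher (1.35, adjusted p = 0.0426) and did not call Pdia5 (-3.94, adjusted p = 0.0640). With no filter on low counts, where 3.22% of all genes were called, edgeR called the same 3 members and Ero1l (1.31, adjusted p = 0.0152). On raw library totals Pdia5, Erp44 and Ero1lb were called, beside 1.55% of all genes.

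**Figure D4:**
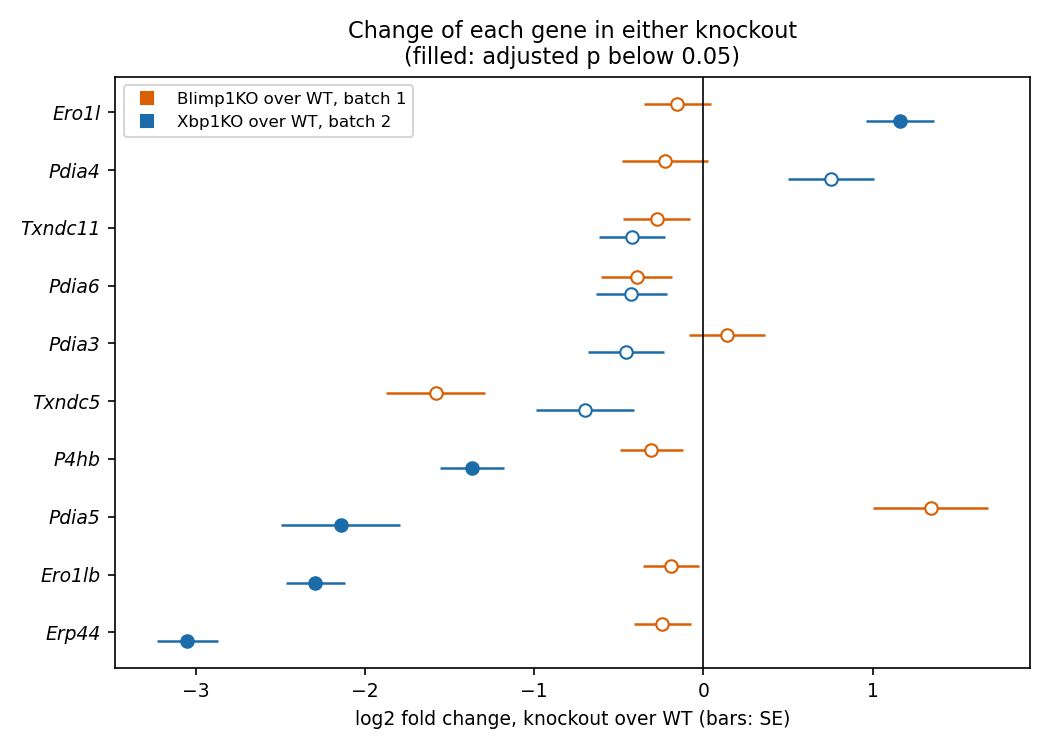
Log2 fold change (x axis) of each gene (rows, ordered by the Xbp1KO value) in Blimp1KO (upper point) and Xbp1KO (lower point), each over WT of its own batch, with SE bars and filled points for adjusted p below 0.05. Filled points are seen in Xbp1KO alone, at 1.16 for Ero1l and from -1.37 to -3.05 for P4hb, Pdia5, Ero1lb and Erp44.

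Genes around this relay were counted in 3 lists. Over all genes tested in Xbp1KO, 2.63% were called higher and 5.06% lower, and the median log2 fold change was 0.08. Of the 14 other PDI family genes, 9 passed the filter on low counts, and in Xbp1KO 4 rose, 1 fell and 4 did not pass, with a median of 0.64. The gene that fell was Dnajc10 (ERdj5), a reductase that opens disulfides of proteins bound for degradation, at 30.3 and 27.6 CPM in Xbp1KO against 99.3 and 85.6 CPM in WT (log2 -1.68 ± 0.16, adjusted p = 0.00316, edgeR). The thioredoxin-domain genes Txndc12 (log2 1.29 ± 0.17, adjusted p = 0.00789, edgeR), Txndc15 (0.98 ± 0.17, 0.0209) and Txndc16 (1.18 ± 0.21, 0.0217) rose. Tmx1, a membrane-bound PDI named after its value was seen, also rose (0.60 ± 0.13, 0.0375).

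Of 15 further thiol and peroxide enzymes of the secretory pathway, 14 passed the filter. In Xbp1KO 7 of them fell, none rose and 7 did not pass, with a median of -0.74. Those with the smallest p were Qsox2, a sulfhydryl oxidase that makes disulfides without ERO1 (log2 -2.14 ± 0.17, adjusted p = 0.00193, edgeR), Vimp, a selenoprotein of ER-associated degradation (-1.27 ± 0.16, 0.00720), H6pd, which supplies NADPH inside the ER (-1.69 ± 0.26, 0.0128), and Selm, an ER selenoprotein with a thioredoxin-like fold (-1.82 ± 0.32, 0.0209). Qsox2 was a low transcript, at 3.63 and 3.15 CPM in Xbp1KO against 14.1 and 15.9 CPM in WT. The further 3, named after their values were seen to complete the count, were Prdx4, which consumes the peroxide that ERO1 makes (-1.30, 0.0235), Creld2 (-1.34, 0.0243) and Selk (-0.88, 0.0315). On raw library totals Vimp, H6pd, Selm, Prdx4, Creld2 and Selk were no longer called lower, and Selk was at 0.28. There the list had 1 gene called lower, Qsox2, and 6 called higher, Gpx7, Qsox1, Selt, Sep15, Vkorc1 and Vkorc1l1, beside 1.99% of all genes lower and 60.9% higher.

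Of 15 partners and clients, 10 passed the filter, and in Xbp1KO 1 rose and 2 fell, with a median of 0.19. Mzb1, a plasma cell protein that helps antibody assembly in the ER, fell (log2 -1.96 ± 0.29, adjusted p = 0.0120, edgeR), as did Uggt1, the sensor that returns misfolded glycoproteins to the lectin chaperones (-0.96 ± 0.21, 0.0374). Erap1, a peptide-trimming enzyme that ERp44 is known to bind, rose (0.92 ± 0.18, 0.0298). Uggt1 was at 0.19 on raw library totals, where 7 genes of this list were called higher and 1 lower, and of the other PDI family genes 8 higher and 1 lower. With 1 of the 8 libraries left out in turn, Dnajc10 and Qsox2 kept their call in every case. The calls of Txndc15, Tmx1, Prdx4, Selk, Uggt1 and Erap1 were lost when any of WT replicates 1 to 4 or either Xbp1KO library was left out, those of Mzb1, Selm and Creld2 without either Xbp1KO library or WT replicate 3 or 4, and that of H6pd without Xbp1KO replicate 1 or WT replicate 3. Those of Txndc12 and Txndc16 were lost without Xbp1KO replicate 1, WT replicate 3 or WT replicate 4, and that of Vimp without Xbp1KO replicate 2 or WT replicate 3. Without both Xbp1KO replicate 2 and WT replicate 4, no gene of the 3 lists was called, Dnajc10 being at -1.72 (adjusted p = 0.0947) and Qsox2 at -1.96 (adjusted p = 0.0693).

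**Figure D5:**
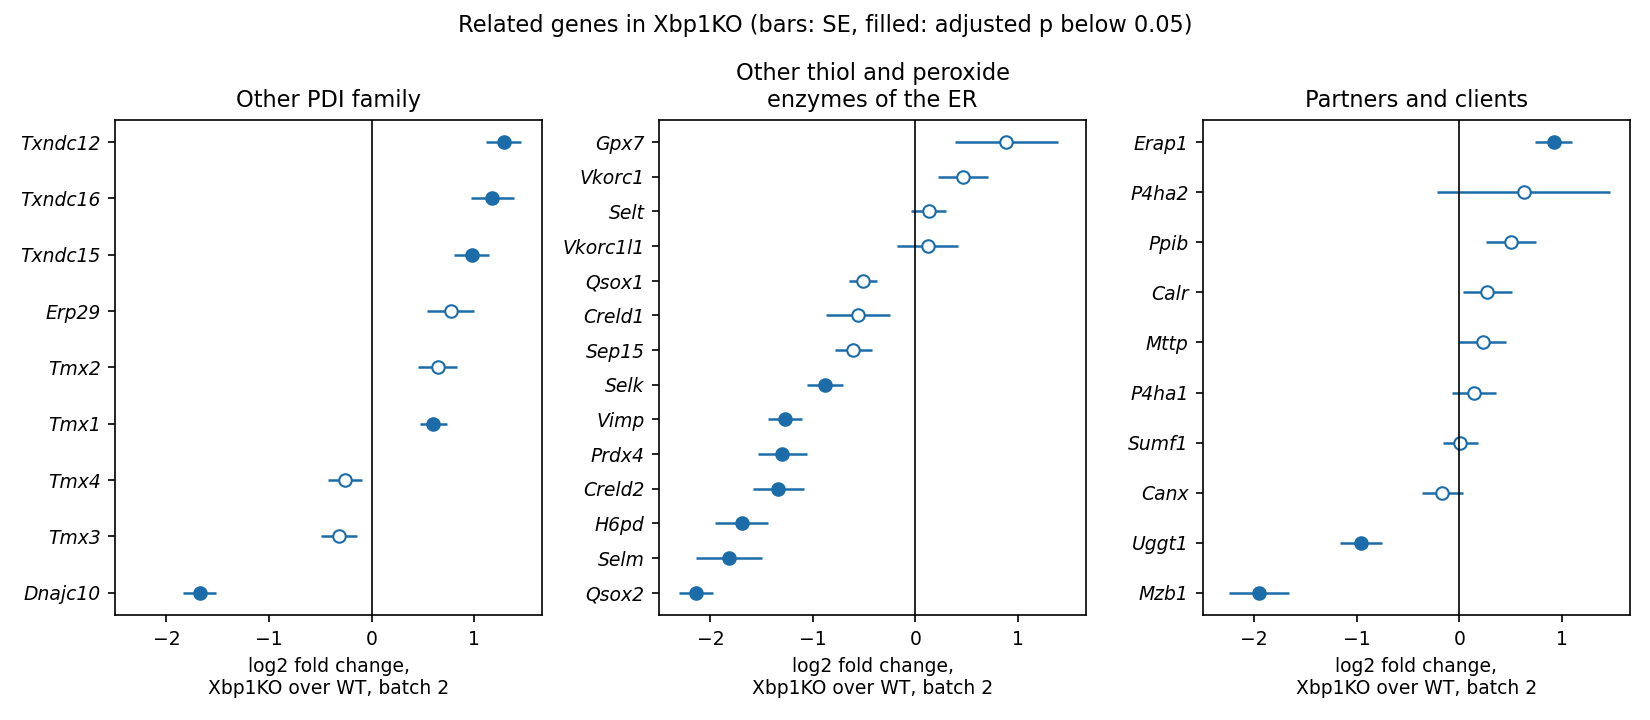
Log2 fold change in Xbp1KO over WT of batch 2 (x axis, SE bars) of the tested genes (rows) of the 3 lists around the disulfide relay, filled where the adjusted p was below 0.05. The middle panel has 7 filled points, all below 0 and down to -2.14 for Qsox2, and the left panel has 4 above 0 and Dnajc10 at -1.68.

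On raw library totals 8, 4 and 4 of the tested genes of these lists were called in Blimp1KO, all higher, beside 38.7% of all genes. With TMM scaling edgeR called none of them, beside 0.862% of all genes. The medians were then 0.18, -0.31 and -0.09, beside -0.006 over all genes, with 2, 5 and 0 genes at an unadjusted p below 0.05. The values with the smallest p in each list were -0.33 ± 0.13 for Tmx1 and 0.41 ± 0.17 for Txndc12, -1.09 ± 0.25 for Creld2 (adjusted p = 0.110) and -0.54 ± 0.16 for Vimp, and 0.44 ± 0.20 for Uggt1 and -0.32 ± 0.24 for Calr. DESeq2 called Creld2 (adjusted p = 0.000607) and Prdx4 lower and no other gene of the 3 lists, and limma on the log2 FPKM called none. The effects of the knockouts differed for Dnajc10 (-1.82 ± 0.22, adjusted p = 0.0193, edgeR) and Qsox2 (-1.69 ± 0.23, adjusted p = 0.0247).

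Across the 8 libraries, log2 CPM was centred on the mean of its batch and correlated with the mean of the 10 members. For 8 members Pearson r was positive (0.60 for Txndc5 to 0.99 for P4hb), and it was negative for Pdia4 (-0.70) and Ero1l (-0.81). Each member is part of that mean, so these r values restate the changes given above and test nothing further. Outside the family, the profiles most like the members' mean over these 8 libraries were Arf4 and Stx18, genes of vesicle traffic between ER and Golgi (r = 0.995 each), and the uncharacterised 1700012D01Rik (r = 0.994). In Xbp1KO their log2 fold changes were -1.12, -0.85 and -1.37, the last without a call (adjusted p = 0.238, edgeR). These genes were picked on the same libraries, so their fold changes are no separate evidence. All these values share library, depth and scaling, and on raw library totals Arf4 and Stx18 were at 0.03 and 0.30. The calls of Arf4 (adjusted p = 0.0192, edgeR) and Stx18 (adjusted p = 0.0230) were lost when any of WT replicates 1 to 4 or either Xbp1KO library was left out. Txndc5 overlaps Bmp6 and Txndc11 overlaps Snn in the annotation, with at most 3119 and 13658 counts of the neighbour in a library, and the strand setting of the counting is not given, so their reads could not be parted by strand.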

How the data were processed

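RNA was sequenced from sorted plasma cells in 8 libraries, 2 per group, using RNeasy Micro extraction and TruSeq RNA libraries, per the labels' protocols. Subread, featureCounts and limma, and the build GRCm38 (mm10), are named in the submitters' processing notes, without versions. The authors deposited a table of raw read counts per Entrez gene and, per library, log2 FPKM for 13945 genes. With gene length added back, the sorted log2 FPKM agree between libraries within 0.00875 over the upper ranks. Symbols came from the deposited files for 13860 identifiers and from RefSeq GRCm38.p6 for 11720, and 1599 had none.

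Counts were analysed with edgeR 4.0.16 in R 4.3.3: filterByExpr at a minimum count of 10 (15073 genes kept, 12106 removed), TMM, and a quasi-likelihood fit of 4 group means to all 8 libraries (4 residual and 3.06 prior degrees of freedom). P-values are adjusted by Benjamini-Hochberg over all genes tested and a gene is called below 0.05. The SE is the absolute log2 fold change over the square root of F. The fit was tested on simulated counts. Alternatives were DESeq2 1.42.0, limma 3.58.1 on the log2 FPKM, other scalings and filters, immunoglobulin genes left out, libraries left out, 1 batch at a time and a replicate block. Raw library totals and the joint removal of Xbp1KO replicate 2 and WT replicate 4 were added after the data were seen.

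The members, lists, tests and naming rule were chosen with earlier results of these data known. Named genes are the 10 members, up to 4 called genes per list and knockout with the smallest p (or 2 as values where none was called), the 3 profiles most like the members' mean, and the targeted genes. Replicates of a pair differed beyond counting noise in every group. Motifs were searched in 32851 RefSeq promoter windows. Precision rests on raw counts of 41 to 405596 per member and library.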

Additional observations from a re-analysis of the deposited data

Results flagged for a closer look

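The Xbp1KO change, less the Blimp1KO change, differed from 0 for 3 members and for 2 genes of the lists around them, by edgeR's test of the difference itself, on the log2 scale and with SE. Pdia5 differed by -3.49 ± 0.49 (adjusted p = 0.0270), with -2.14 in Xbp1KO and 1.34 in Blimp1KO. Erp44 differed by -2.81 ± 0.24 (adjusted p = 0.00800), with -3.05 and -0.24. Ero1lb differed by -2.10 ± 0.24 (adjusted p = 0.0144), with -2.29 and -0.19. Dnajc10 differed by -1.82 ± 0.22 (adjusted p = 0.0193), with -1.68 and 0.14. Qsox2 differed by -1.69 ± 0.23 (adjusted p = 0.0247), with -2.14 and -0.46. For all 5 genes both Xbp1KO libraries were below both WT libraries of batch 2. The knockouts were in different batches, so a difference between the knockouts and a batch-specific response cannot be told apart. The Erp44 call was lost without WT replicate 1 or WT replicate 2, that of Ero1lb without any 1 WT library, and those of Pdia5, Dnajc10 and Qsox2 without any 1 WT or Xbp1KO library, with adjusted p up to 0.168. None of the 5 was called without both Xbp1KO replicate 2 and WT replicate 4. On raw library totals Qsox2 was at -1.35 (adjusted p = 0.0751) and the other 4 were still called. With limma on the log2 FPKM Pdia5 was at -3.94 (adjusted p = 0.0640) and the other 4 were called.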

How the results depend on the processing

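Over 912 recomputed fold changes of the named genes, 886 kept their sign and 26 did not, 20 of these on raw library totals. With DESeq2 the members called were 2 in Blimp1KO, 7 in Xbp1KO and 6 in the difference of effects, and all genes called were 813, 2172 and 1156, against 130, 1160 and 253 by edgeR. With no filter the counts of all genes were 517 in Blimp1KO and 763 in the difference, and with immunoglobulin genes left out 1 member, Txndc5, was called in Blimp1KO. The fit of batch 1 alone called 20 genes. Leaving out 1 library at a time gave 0 to 688 genes in Blimp1KO, 225 to 2123 in Xbp1KO and 3 to 598 in the difference, with 0 members, 2 to 5 members and 0 to 3 members. Without both Xbp1KO replicate 2 and WT replicate 4 the counts were 31, 59 and 2 genes, and 1 member in Xbp1KO and 0 in the difference. A library left out also lowers the degrees of freedom.

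On raw library totals 5895 genes were called in Blimp1KO (5835 higher and 60 lower) and 9474 in Xbp1KO (9174 higher and 300 lower), against 87 higher and 43 lower and 397 higher and 763 lower with TMM. Members called were 5 and 8. Values that changed sign there in Blimp1KO were P4hb 0.49, Pdia4 0.57, Pdia6 0.40, Txndc11 0.51, Erp44 0.55, Ero1l 0.64, Ero1lb 0.60, Tmx1 0.47, Vimp 0.26 and Calr 0.47. In Xbp1KO they were Pdia3 0.68, Pdia6 0.72, Txndc5 0.46, Txndc11 0.73, Selk 0.28, Uggt1 0.19, Arf4 0.034 and Stx18 0.30, and in the difference Pdia6 0.33 and Txndc11 0.22. The median gene moved by 0.79, 1.16 and 0.36. On the log2 FPKM, Pdia3 was at -0.0041 in Blimp1KO and Pdia6 at 0.025 in the difference. The Pdia6 difference ranged from -0.29 to 0.081 with 1 library left out, and was 0.029 without both Xbp1KO replicate 2 and WT replicate 4.

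The replicate numbers of batch 1 were used as a replicate block in 1 fit. It called 0 members in Blimp1KO and 3 in the difference, and 89 and 178 genes in all. The deviations of Blimp1KO replicate 1 and WT replicate 1 from their group means correlated at r = 0.218 over 15073 genes, but with 2 pairs the samples share only a number. Xbp1KO and WT of batch 2 share no replicate numbers, so no paired fit was possible there. With 2 libraries per group, changes the size of those of Pdia3, Pdia6 and Txndc11 could not be told from the spread.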
